A study of Mus musculus with 4 samples.

Results

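The genes of glycolysis and the targets of the hypoxia-inducible factors (HIF) were followed in IMCD cells, a line from the inner medullary collecting duct, that had or lacked the type II TGF-β receptor (TβRII). They were taken as a list of 39 symbols, 19 for glucose entry, glycolytic enzymes, lactate and the control of glycolytic flux, and 20 for the HIF pathway and its other targets. All 39 were found in a row of their own among the 37981 gene loci of the deposited tables. The cells came from C57B/l mice with Tgfbr2, the gene for TβRII, floxed, and were immortalized with psv40, so every library comes from immortalized cells that carried the floxed allele. TβRII-/- cells had been treated with adeno-Cre, an adenovirus that carries the Cre recombinase, and TβRIIfl/fl cells were untreated. Both were sequenced after 4 days of serum starvation and with serum kept in the medium (serum-replete). This gives 4 libraries, 1 for each condition, so no difference had a replicate check and no p-value was computed. The same cell populations served in both media, and effects of the virus or of Cre cannot be told apart from those of TβRII loss.

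Glycolysis converts glucose to pyruvate in the cytosol, and lactate dehydrogenase can reduce that pyruvate to lactate in place of its oxidation in mitochondria. HIF is a pair of proteins, an oxygen-sensitive alpha subunit and the constant subunit ARNT. Prolyl hydroxylases mark the alpha subunit for destruction while oxygen is present, and when it is scarce HIF raises glucose carriers, most glycolytic enzymes, angiogenic factors and genes that limit mitochondrial respiration. The inner medulla is the part of the kidney with the lowest oxygen, and its cells are known to rely on glycolysis.

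Expression was given in FPKM, fragments counted per kilobase of transcript and scaled to the size of the library, which allows levels of different genes to be compared. Tgfbr2 itself (chromosome 9, 116087698 to 116175363, mm10) was 73.7 FPKM in TβRII-/- and 143 FPKM in TβRIIfl/fl cells after serum starvation, and 57.0 and 163 FPKM in serum-replete medium. This value covers the whole gene and does not show whether the floxed part was lost. The mitochondrial transfer RNA gene mt-Ts1 took 17.1% to 21.8% of each sum. Among markers of the collecting duct and of epithelium, Aqp2, the vasopressin-regulated water channel, was at 0 in all 4 libraries and 7 of 20 were under 1 FPKM throughout, while the kidney lineage factor Pax8 lay between 128 and 252 FPKM. The marker list summed to 591 FPKM in TβRII-/- and 539 FPKM in TβRIIfl/fl cells after serum starvation and 804 and 768 FPKM in serum-replete medium, but its members diverged with genotype. After starvation 13 markers reached 1 FPKM in a library, and 5 of them were at least 2-fold lower in TβRII-/- cells and 2 higher. In serum-replete medium 7 of 13 were lower and 2 higher. Over all genes, 6.64% were lower and 8.02% higher starved, and 11.1% and 7.0% replete. Krt8 was 0.133 and 0.229 FPKM in the TβRII-/- libraries and 142 and 251 FPKM in the TβRIIfl/fl libraries, and Krt7 was higher in TβRII-/- cells (362 against 53.9 FPKM starved, 525 against 91.5 FPKM replete). The kidney factor Pax2 was 36.4 and 40.5 FPKM in the TβRII-/- and 68.1 and 75.6 FPKM in the TβRIIfl/fl libraries, and the epithelial factor Ehf 0.845 and 0.203 FPKM against 3.69 and 5.45 FPKM. Of 6 proximal tubule markers, which summed to 7.65 to 53.8 FPKM, Aqp1 was 0.499 and 0.904 FPKM in TβRII-/- cells and 48.5 and 20.3 FPKM in TβRIIfl/fl cells, while Lrp2, the endocytic receptor megalin, went the other way, at 20.4 against 4.19 FPKM starved and 5.61 against 2.18 FPKM replete. All 5 endothelial markers were under 1 FPKM in every library, as were 6 of 7 fibroblast markers, and 6 leukocyte markers summed to 4.27 to 12.0 FPKM, most of it Cd68. In bulk libraries such as these, fewer cells of a kind and less RNA per cell cannot be told apart. The part of these differences between the cell populations in the results for glycolysis and HIF genes was not tested.

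HIF binds DNA at a short core that often reads ACGTG, so the starts of the member genes are shown with that core in view. RefSeq windows (GRCm38.p6, the same build as mm10) of 300 bases, from 250 before to 50 after the annotated start, matched 34 of the 39 genes, and Epas1, Bnip3l, Plod2, Ero1l and Ndrg1 were not matched. The letters ACGTG, read on both strands, were present in at least 1 window of 24 of the 34 genes (70.6%), against 29.9% of 8603 genes measured in serum-starved cells with such a window. Genes can have several windows, and among those with a single window the shares were 69.6% of 23 members and 26.8% of 6764 genes. The other common form of the core, GCGTG, was in 64.7% of members and 57.8% of measured genes, and the palindrome CACGTG, which holds ACGTG on each strand, was in 14.7% and 12.0%. The 4 members printed here reached 2-fold in serum-starved TβRII-/- cells and had at least 2 matches each, and were picked as examples with these counts known. The 250 bases before the start are given on the gene's strand, and capitals mark ACGTG or its reverse complement CACGT, which join to CACGTG where they overlap.
Ldha: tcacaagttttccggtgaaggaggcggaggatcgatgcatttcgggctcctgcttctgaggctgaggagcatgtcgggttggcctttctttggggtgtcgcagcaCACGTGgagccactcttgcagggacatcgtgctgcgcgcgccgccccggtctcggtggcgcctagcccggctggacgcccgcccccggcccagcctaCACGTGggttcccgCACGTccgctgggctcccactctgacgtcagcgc
Bnip3: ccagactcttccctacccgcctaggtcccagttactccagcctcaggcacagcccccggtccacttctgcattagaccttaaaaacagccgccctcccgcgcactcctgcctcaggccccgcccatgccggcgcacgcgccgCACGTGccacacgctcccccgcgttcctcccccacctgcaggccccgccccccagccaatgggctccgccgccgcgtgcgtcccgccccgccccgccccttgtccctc
Pgk1: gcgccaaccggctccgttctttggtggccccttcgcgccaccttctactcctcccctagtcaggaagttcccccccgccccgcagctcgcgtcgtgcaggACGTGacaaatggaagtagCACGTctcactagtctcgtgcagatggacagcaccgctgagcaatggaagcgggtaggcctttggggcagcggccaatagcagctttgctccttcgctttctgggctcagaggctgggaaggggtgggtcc
Hk2: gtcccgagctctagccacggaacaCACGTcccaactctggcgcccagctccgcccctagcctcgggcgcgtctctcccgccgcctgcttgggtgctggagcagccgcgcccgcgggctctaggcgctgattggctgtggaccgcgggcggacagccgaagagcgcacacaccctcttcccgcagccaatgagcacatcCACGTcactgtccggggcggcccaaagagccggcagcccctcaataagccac
The Ldha window printed (chr7:46845554-46845803, plus strand) held 5 matches at 3 places, which begin 145, 48 and 34 bases before the start. At 2 of those places the match was the palindrome. Another Ldha window, of 300 bases (chr7:46846832-46847131), held 0 matches. Bnip3 (chr7:138909507-138909756, minus strand) held the palindrome once, 108 bases before its start. Pgk1 (chrX:106186850-106187099, plus strand) held matches at 150 and 131 bases, and Hk2 (chr6:82774455-82774704, minus strand) at 226 and 52 bases. The core was in 11 of 16 members (68.8%) that were at least 2-fold higher in starved TβRII-/- cells and in 13 of the other 18 (72.2%). Those 18 include Car9 and Slc16a3, which held the core but were under 1 FPKM in both starved libraries.

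After serum starvation, the glycolytic and HIF genes were mostly higher in TβRII-/- than in TβRIIfl/fl cells. The comparison used the log2 ratio, the log2 of FPKM plus 1 in TβRII-/- cells minus that in TβRIIfl/fl cells, for genes that reached 1 FPKM in at least 1 of the 2 libraries of that medium. Of 37 members that passed this minimum, 19 (51.4%) were at least 2-fold higher and 0 were at least 2-fold lower, where 8.02% of all 12687 genes were higher and 6.64% were lower. Their median log2 ratio was 1.04, with 35 of 37 above 0, beside a median of 0.028 and 52.1% above 0 over all genes. Egln3 passed the minimum only through its value in TβRII-/- cells. Both classes contributed: 12 of 18 glycolytic members were at least 2-fold higher (median 1.20), and 7 of 19 other HIF members (median 0.68).

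In serum-replete medium few of these genes were higher. Of 35 members that passed the minimum, 2 (5.71%) reached 2-fold higher levels in TβRII-/- cells, where 7.0% of all 12635 genes were, and 5 (14.3%) were at least 2-fold lower, where 11.1% of all genes were. Both shares lay near those of all genes. The median log2 ratio was 0.029 over the members and −0.029 over all genes, and 19 of 35 members lay above 0. Glycolytic members had a median of 0.26, with 1 higher and 1 lower, and other HIF members a median of −0.24, with 1 higher and 4 lower.

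**Figure D1:**
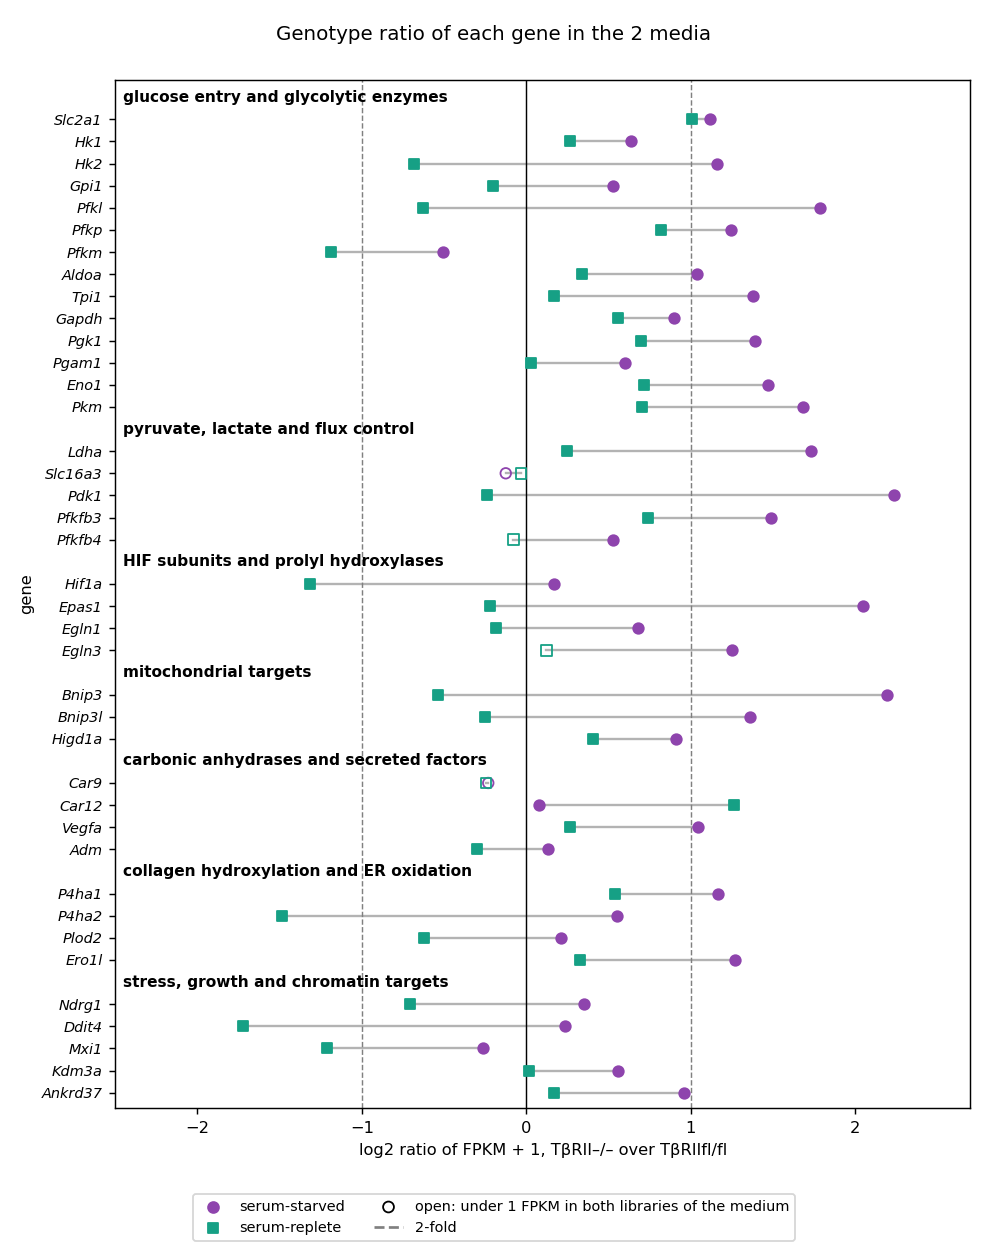
Log2 ratio of FPKM + 1 (TβRII-/- over TβRIIfl/fl cells, horizontal axis) for each of the 39 genes, grouped by role, with circles for serum-starved and squares for serum-replete cells, open symbols for genes under 1 FPKM in both libraries of the medium, and dashed lines at 2-fold. Of the 37 filled circles, 35 lie to the right of 0 and 19 beyond the right dashed line, while the squares spread around 0.

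RNA of glucose carriers differed between the genotypes in both media, with Slc2a1 higher in TβRII-/- cells and Slc2a2 and Slc2a8 lower. Glucose uptake was not measured. Slc2a1, the gene for the glucose carrier GLUT1 (chromosome 4, 119108711 to 119138801), was 163 FPKM in TβRII-/- and 74.7 FPKM in TβRIIfl/fl cells after serum starvation, and 78.7 and 38.6 FPKM in serum-replete medium. It was the only member at least 2-fold higher in both, with log2 ratios of 1.12 and 1.01. The overlapping locus Gm12868 was 30.2, 12.0, 16.8 and 7.22 FPKM in the same order of libraries, and reads of the 2 loci cannot be separated here because the strand setting of the counting is not given in the sources used here.

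Hexokinases, which trap glucose in the cell as glucose 6-phosphate, split by isoenzyme and medium. Hk2, the inducible form (chromosome 6, 82725025 to 82774454), was 54.2 FPKM in TβRII-/- and 23.7 FPKM in TβRIIfl/fl cells after starvation, but 19.3 and 31.5 FPKM in serum-replete medium. Its log2 ratios were therefore 1.16 and −0.68. Hk1, the form most tissues use, stayed under 2-fold in both media, at 94.4 and 60.3 FPKM starved and 66.0 and 54.9 FPKM replete. Gpi1, which turns glucose 6-phosphate into fructose 6-phosphate, also stayed under 2-fold, with values from 194 to 336 FPKM.

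Phosphofructokinase catalyzes the committed step of glycolysis, and its 3 isoenzyme genes did not move together. Pfkl, the liver form (chromosome 10, 77986947 to 78010083), had the highest ratio of the 14 genes for glucose entry and glycolytic enzymes, at 111 FPKM in TβRII-/- and 31.6 FPKM in TβRIIfl/fl cells after starvation (log2 ratio 1.78). In serum-replete medium it was 26.6 and 41.8 FPKM (log2 ratio −0.63), so only the starved TβRII-/- library stood high. Pfkp, the platelet form, favored TβRII-/- cells in each medium, at 104 against 43.2 FPKM starved and 41.7 against 23.2 FPKM replete (log2 ratios 1.25 and 0.82). Pfkm, the muscle form, lay below 0 in both media and was the only measured glycolytic member to do so, at 18.8 and 27.1 FPKM starved (log2 ratio −0.50) and 8.23 and 20.1 FPKM replete (log2 ratio −1.19). Pfkm accordingly made up 8.03% of the FPKM of the 3 genes in starved and 10.8% in replete TβRII-/- cells, against 26.6% and 23.6% in TβRIIfl/fl cells. The deposited Pfkm locus overlaps Senp1, which was 12.9 to 26.5 FPKM, and that of Pfkp overlaps Pitrm1, at 19.0 to 28.3 FPKM.

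The enzymes from aldolase to pyruvate kinase each had a log2 ratio above 0 in both media, and all of them but Pgam1 were at 91.4 FPKM or more in every library. Aldoa, which splits fructose 1,6-bisphosphate, was 1227 FPKM in TβRII-/- and 597 FPKM in TβRIIfl/fl cells (log2 ratio 1.04), and 784 and 620.1 FPKM in serum-replete medium (log2 ratio 0.34). Tpi1, which interconverts the triose phosphates, was 666 and 256 FPKM starved (log2 ratio 1.38) and 364 and 324 FPKM replete (0.17). Gapdh, often taken as a constant reference gene, was 1093 and 586 FPKM starved and 1162 and 791 FPKM replete, with log2 ratios of 0.90 and 0.56 that stayed under 2-fold. Both TβRII-/- libraries were above both TβRIIfl/fl libraries for Aldoa, Tpi1 and Gapdh.

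Lower in the pathway, 3 of the 4 enzymes were at least 2-fold higher in starved TβRII-/- cells. Pgk1, which makes the first ATP of the pathway (chromosome X, 106187100 to 106203699), was 241 FPKM in TβRII-/- and 91.4 FPKM in TβRIIfl/fl cells after starvation, and 186 and 114 FPKM in serum-replete medium. Pkm, the pyruvate kinase of most cells outside liver and red cells (chromosome 9, 59656368 to 59679375), was the most abundant member, at 1668 and 520 FPKM starved and 1390 and 853 FPKM replete. Eno1, the enolase that supplies its substrate, was 1086 and 393 FPKM starved and 903 and 550.2 FPKM replete. Their log2 ratios were 1.39, 1.68 and 1.47 in starved and 0.70, 0.70 and 0.71 in replete cells. Pgam1, the mutase between Pgk1 and Eno1, stayed between 37.8 and 57.8 FPKM in all 4 libraries.

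Summed over the 14 genes, glucose entry and glycolytic enzymes took 6922 FPKM in starved TβRII-/- and 2973 FPKM in starved TβRIIfl/fl cells. In serum-replete medium the sums were 5275 and 3736 FPKM. The 2 media were normalized separately by the authors, so levels across media are also given as shares of each library's summed FPKM, which were 0.691%, 0.261%, 0.511% and 0.333% in the same order. TβRII-/- cells thus lay above TβRIIfl/fl cells in both media, and TβRIIfl/fl cells had the lower share after starvation while TβRII-/- cells had the higher.

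**Figure D2:**
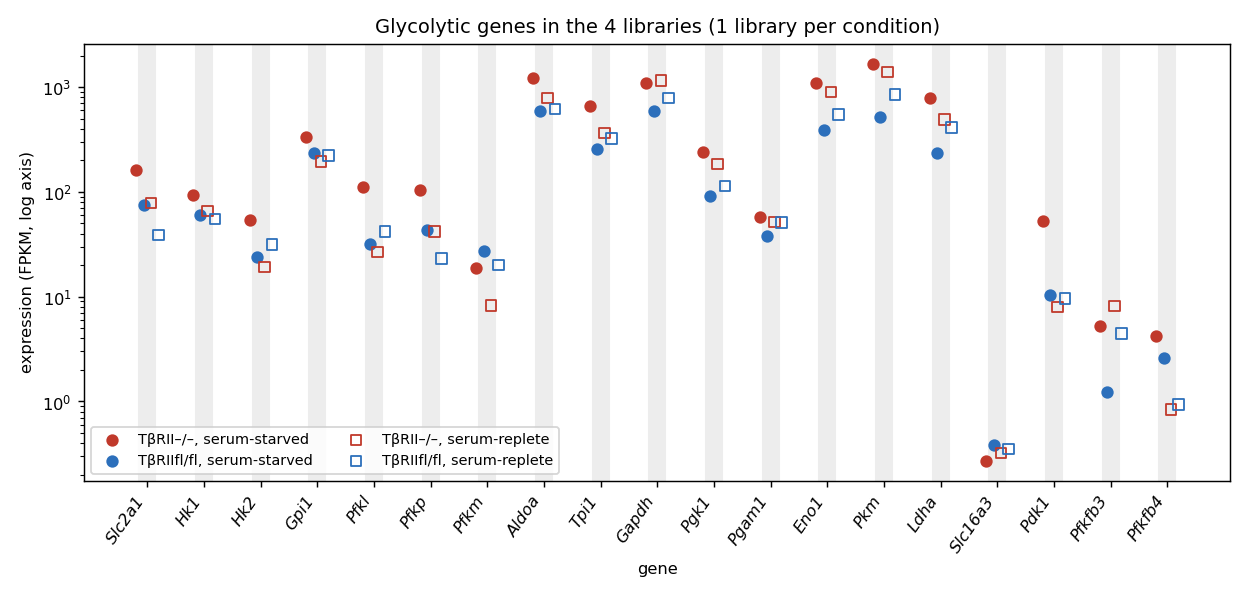
Expression in FPKM (log axis) of the 19 glycolytic members, with a point for each of the 4 libraries, filled for serum-starved and open for serum-replete cells, red for TβRII-/- and blue for TβRIIfl/fl. The filled red points lie highest for 15 genes, among them Pkm at 1668 FPKM, while Pfkm is lowest in the open red point at 8.23 FPKM.

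Several of these genes have processed pseudogenes or near copies, to which reads of 50 bases can also align. In the GENCODE vM21 transcripts, 68.0% of all stretches of 50 bases in Pgk1 also occur in another gene, 58.4% in Gapdh, 49.5% in Eno1, 41.5% in Pgam1 and 23.7% in Pkm. These shares do not give the error of the FPKM values, which was not estimated. Among 25 members with under 1% of such stretches, 11 of the 23 that passed the minimum were at least 2-fold higher and 0 lower in starved TβRII-/- cells (median log2 ratio 0.96). In serum-replete medium 2 of 21 were higher and 3 lower, too few to set apart from the shares of all genes given above for that medium. The closest copies of Pgk1 and Gapdh, Pgk1-rs7 and Gm7336, were at 0 in all 4 libraries, but Gapdh shares stretches with 215 pseudogenes. Eno1b, which holds 48.4% of the Eno1 stretches, was not found among the loci. Whether reads were given to the wrong copy was not tested.

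Genes that decide the fate of pyruvate differed in both their level and their isoenzyme. Ldha, the lactate dehydrogenase subunit that favors lactate formation (chromosome 7, 46841475 to 46855627), was 786 FPKM in TβRII-/- and 236 FPKM in TβRIIfl/fl cells after starvation, and 491 and 412 FPKM in serum-replete medium. Its log2 ratios were 1.73 and 0.25. Ldhb, the partner subunit that favors pyruvate and is not a member of the list, went the other way in both media, at 245 and 797 FPKM starved (log2 ratio −1.70) and 193 and 922 FPKM replete (−2.25). Ldha therefore made up 76.3% of the summed FPKM of both subunits in starved and 71.8% in replete TβRII-/- cells, against 22.9% and 30.9% in TβRIIfl/fl cells. The main lactate dehydrogenase transcript therefore differed between the genotypes in both media, while Ldha itself reached 2-fold only after starvation.

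Pdk1 encodes a kinase that inactivates pyruvate dehydrogenase and so limits the oxidation of pyruvate in mitochondria. The gene (chromosome 2, 71873224 to 71903858) had the highest starved ratio of all members. It was 52.9 FPKM in TβRII-/- and 10.5 FPKM in TβRIIfl/fl cells after starvation (log2 ratio 2.23), and 7.96 and 9.57 FPKM in serum-replete medium (log2 ratio −0.24). Of the 4 libraries, the starved TβRII-/- library alone stood high. In that library Pdk1 made up 67.6% of the FPKM of the 4 pyruvate dehydrogenase kinases, beside 20.3% to 25.8% in the others. Pdk2, another kinase of this family outside the list, was lower in TβRII-/- cells in both media, at 9.18 and 22.9 FPKM starved and 3.48 and 12.5 FPKM replete.

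Pfkfb3 and Pfkfb4 make fructose 2,6-bisphosphate, the activator of phosphofructokinase. Pfkfb3 was 5.22 FPKM in TβRII-/- and 1.22 FPKM in TβRIIfl/fl cells after starvation (log2 ratio 1.49), and 8.14 and 4.47 FPKM in serum-replete medium (0.74). Pfkfb4 was 4.18 and 2.61 FPKM starved and under 1 FPKM in both replete libraries. Slc16a3, the lactate exporter MCT4, was between 0.27 and 0.386 FPKM in every library and so did not pass the minimum. The monocarboxylate carrier Slc16a1 (MCT1), outside the list, supplied 95.1% to 99.2% of the FPKM of these carriers and was the higher in TβRII-/- cells whatever the medium, at 33.8 and 10.03 FPKM starved and 26.7 and 6.90 FPKM replete (log2 ratios 1.66 and 1.81).

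**Figure D3:**
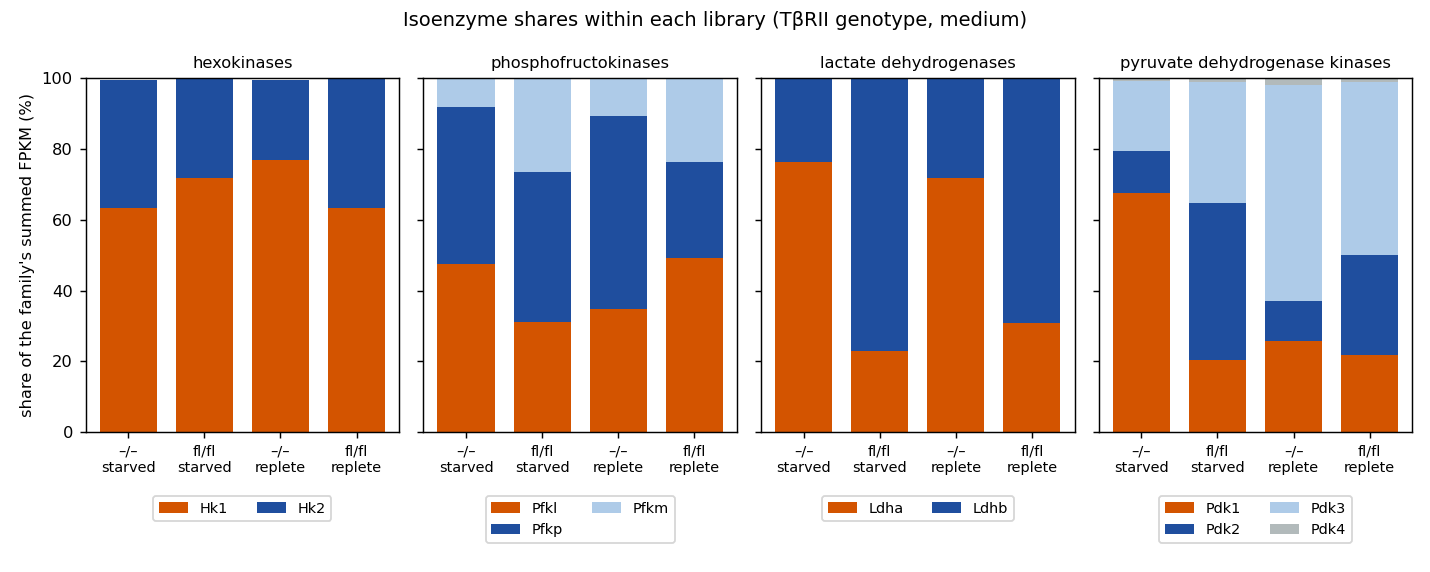
Share of each isoenzyme gene in the summed FPKM of its family (%, bars from 0 to 100) in each of the 4 libraries, for hexokinases, phosphofructokinases, lactate dehydrogenases and pyruvate dehydrogenase kinases (hexokinases not drawn take the gap to 100). Ldha takes 76.3% and 71.8% in TβRII-/- against 22.9% and 30.9% in TβRIIfl/fl libraries, and Pdk1 takes 67.6% in the starved TβRII-/- library alone.

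The HIF alpha subunits themselves moved in different ways. Hif1a, which encodes HIF-1α (chromosome 12, 73901375 to 73949785), was 75.1 FPKM in TβRII-/- and 66.7 FPKM in TβRIIfl/fl cells after starvation (log2 ratio 0.17), and 51.0 and 128 FPKM in serum-replete medium (log2 ratio −1.31). The replete TβRIIfl/fl library was the high one. Epas1, which encodes HIF-2α (chromosome 17, 86753907 to 86833410), was 17.6 and 3.51 FPKM starved (log2 ratio 2.05) and 2.02 and 2.52 FPKM replete (log2 ratio −0.22), so that the starved TβRII-/- library was the high one. As shares of the FPKM of the HIF alpha genes, Epas1 was 19.0% there and at most 4.99% in the other libraries. HIF alpha is controlled mainly through the stability of the protein, which RNA does not show. Hif1a overlaps Gm15283, which was 14.1, 11.5, 9.12 and 23.9 FPKM in the same order of libraries.

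Of the prolyl hydroxylases, which are also HIF targets in a feedback loop, Egln1 stayed under 2-fold, at 41.5 and 25.6 FPKM starved (log2 ratio 0.68) and 26.9 and 30.7 FPKM replete (−0.19). Egln3, the form most responsive to hypoxia, was 2.60 FPKM in starved TβRII-/- cells and between 0.510 and 0.738 FPKM in the other 3 libraries. Its log2 ratio after starvation was 1.25, at a low level.

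Mitochondrial targets of HIF gave the largest single contrast between the media. Bnip3, a receptor for the removal of mitochondria by autophagy (chromosome 7, 138890836 to 138909519), was 137 FPKM in TβRII-/- and 29.2 FPKM in TβRIIfl/fl cells after starvation (log2 ratio 2.19). In serum-replete medium it was 19.6 and 28.8 FPKM (log2 ratio −0.54). TβRIIfl/fl cells thus had nearly the same level in both media, and the starved TβRII-/- library was the high one. Bnip3l, its close relative (NIX), followed the same pattern at 162 and 62.5 FPKM starved (log2 ratio 1.36) and 54.9 and 65.4 FPKM replete (−0.25). Of the stretches of 50 bases in these genes, 20.7% in Bnip3 and 24.4% in Bnip3l occur in another gene. Higd1a, a respiratory chain assembly factor induced by hypoxia, was 18.8 and 9.53 FPKM starved and 12.7 and 9.31 FPKM replete, under 2-fold in both.

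Among secreted factors and carbonic anhydrases, Vegfa, the main angiogenic factor (chromosome 17, 46016993 to 46032377), was 198 FPKM in TβRII-/- and 95.4 FPKM in TβRIIfl/fl cells after starvation (log2 ratio 1.05), and 57.8 and 48.0 FPKM in serum-replete medium (0.26). Both starved libraries stood above both replete ones. Adm, the vasodilator peptide adrenomedullin, stayed under 2-fold in both media and was lower in the starved (2.38 and 2.08 FPKM) than in the replete libraries (8.12 and 10.2 FPKM). Car12, a membrane carbonic anhydrase (chromosome 9, 66713686 to 66766845), was the exception to the order of the media, at 5.08 and 4.76 FPKM starved (log2 ratio 0.08) and 8.02 and 2.76 FPKM replete (log2 ratio 1.26). Car9, a HIF target in many human tumors, was between 0.0169 and 0.205 FPKM in all 4 libraries and did not pass the minimum.

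Genes of collagen hydroxylation and of oxidative folding in the endoplasmic reticulum were split. P4ha1, a subunit of collagen prolyl 4-hydroxylase, was 127 FPKM in TβRII-/- and 56.1 FPKM in TβRIIfl/fl cells after starvation (log2 ratio 1.16), and 64.6 and 44.1 FPKM in serum-replete medium (0.54). P4ha2, the alternative subunit (chromosome 11, 54100095 to 54131665), was 51.7 and 35.0 FPKM starved (log2 ratio 0.55) but 11.6 and 34.3 FPKM replete (log2 ratio −1.49). The replete TβRII-/- library was the low one for P4ha2, and the other 3 lay between 34.3 and 51.7 FPKM. Ero1l, the oxidase that renews protein disulfide isomerase, was 87.6 and 35.7 FPKM starved (log2 ratio 1.27) and 28.8 and 22.7 FPKM replete (0.33). Plod2, a lysyl hydroxylase of collagen, stayed under 2-fold in both media, between 15.1 and 29.02 FPKM.

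Of the 5 stress, growth and chromatin targets, 0 were at least 2-fold higher after starvation, too few genes to set against the 8.02% of all genes that were. Ddit4, the mTORC1 inhibitor REDD1 (chromosome 10, 59949675 to 59951770), was 32.2 FPKM in TβRII-/- and 27.2 FPKM in TβRIIfl/fl cells starved (log2 ratio 0.23) and 4.14 and 16.01 FPKM replete (log2 ratio −1.73), the lowest replete ratio of all members. Mxi1, an antagonist of Myc, was 11.7 and 14.2 FPKM starved (log2 ratio −0.27) and 3.92 and 10.4 FPKM replete (log2 ratio −1.21). For both genes the replete TβRII-/- library was the low one. Ndrg1, a stress-responsive gene, was 351 and 275 FPKM starved and 55.6 and 91.4 FPKM replete (log2 ratios 0.35 and −0.71). The starved libraries stood above the replete ones for Ndrg1 in both genotypes. Ndrg1 and Mxi1 overlap Gm17035 (38.4 to 241 FPKM) and Gm10197 (58.2 to 184 FPKM), whose reads cannot be separated from theirs here. The histone demethylase Kdm3a was 23.6 and 15.7 FPKM starved and 9.95 and 9.81 FPKM replete, and Ankrd37 was 8.004 and 3.63 FPKM starved and 2.58 and 2.19 FPKM replete. The starved log2 ratio of Ankrd37 was 0.96, just under 2-fold, while its FPKM without the pseudocount differed 2.20-fold. The Ankrd37 locus overlaps Ufsp2, which was higher than Ankrd37 at 24.4 to 29.8 FPKM, and Lrp2bp (0.134 to 0.430 FPKM).

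**Figure D4:**
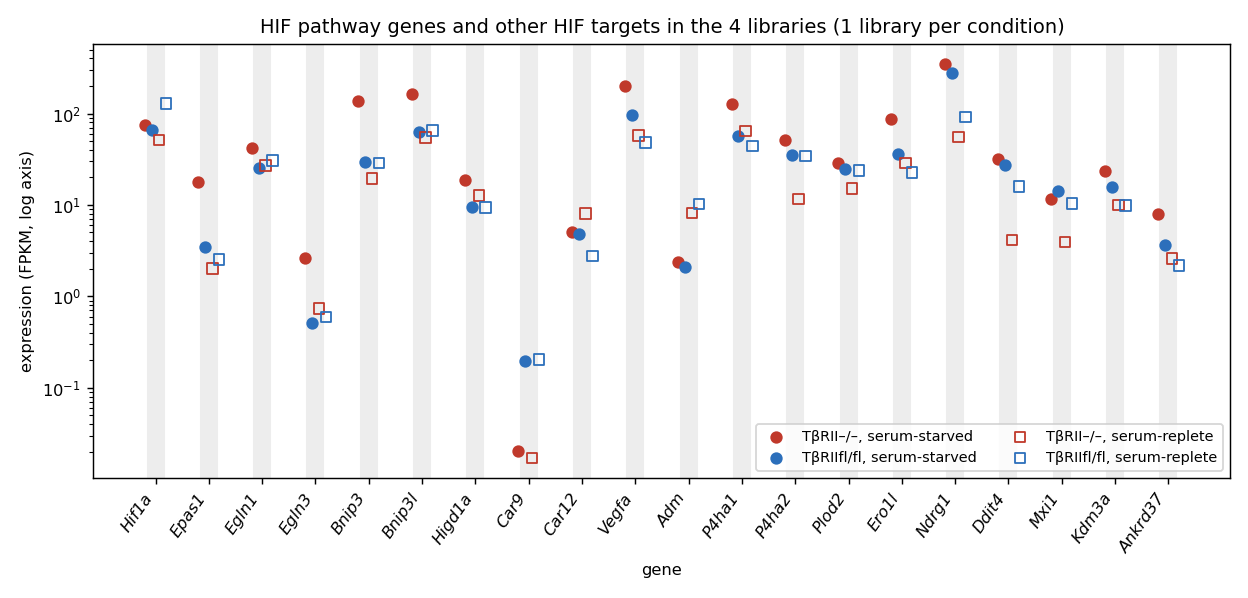
Expression in FPKM (log axis) of the 20 HIF pathway genes and other HIF targets, with a point for each of the 4 libraries, filled for serum-starved and open for serum-replete cells, red for TβRII-/- and blue for TβRIIfl/fl. The starved TβRII-/- point stands apart for Bnip3 (137 FPKM) and Epas1 (17.6 FPKM), and the replete TβRII-/- point is lowest for P4ha2 (11.6 FPKM) and Ddit4 (4.14 FPKM).

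The ratio of the genotypes was higher after starvation than in serum-replete medium for nearly every member. Over the 35 members measured in both media, the starved log2 ratio exceeded the replete one in 34, by a median of 0.79. Over all 12162 genes measured in both media it did so in 58.8%, by a median of 0.10. It was larger by at least 1 in 12 members and smaller by at least 1 in 1, Car12 (−1.18), where 7.44% of all genes were larger and 4.44% smaller by that much. All 17 glycolytic members with values in both media lay on the same side, from 0.11 for Slc2a1 to 2.47 for Pdk1, and the widest gap among the other HIF members was that of Bnip3 (2.73). With a single library for each condition this difference between media was not tested.

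**Figure D5:**
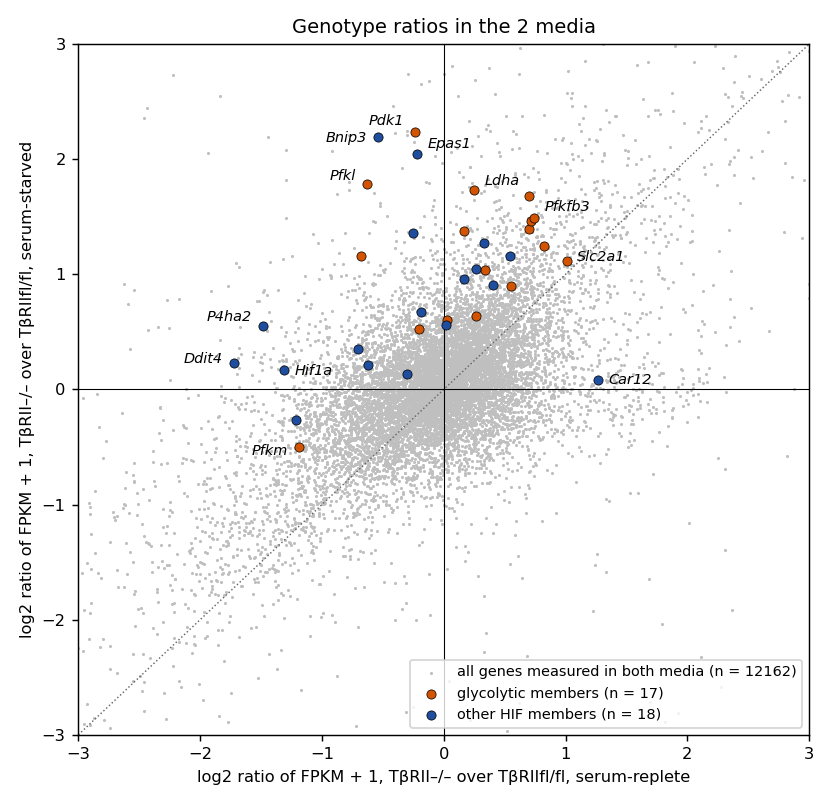
Log2 ratio of FPKM + 1 (TβRII-/- over TβRIIfl/fl) in serum-replete (horizontal axis) and serum-starved cells (vertical axis) for 12162 genes in gray, of which 275 lie outside the axes, with 17 glycolytic members in orange, 18 other HIF members in blue and a dotted line of equal ratios. All members but Car12 lie above the dotted line.

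Set across media, with the separate normalization in mind, the 2 genotypes contributed differently to these gaps. The upper quartile of values above 0 was 23.3 to 24.1 FPKM in the 4 libraries. In TβRII-/- cells the starved level was 8.74 times the replete level for Epas1, 7.01 times for Bnip3, 6.64 times for Pdk1 and 4.19 times for Pfkl, beside 1.39, 1.01, 1.09 and 0.757 times in TβRIIfl/fl cells. For Ldha, Pkm and Eno1 the starved level was 1.60, 1.20 and 1.20 times the replete level in TβRII-/- cells and 0.572, 0.609 and 0.714 times in TβRIIfl/fl cells, so that both genotypes added to the gap. The 20 HIF pathway genes and other targets summed to 0.138% of the FPKM of starved TβRII-/- cells, 0.0691% of starved TβRIIfl/fl cells, and 0.0424% and 0.0518% of the replete libraries. Read steps in the low values put the replete TβRII-/- library at about 1.28 times the depth of the shallowest and the others within 1.03 times of it, and the part of depth in these values was not tested.

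Genes of the pathways around glycolysis were read against the same shares of all genes. These were 8.02% higher and 6.64% lower after starvation, and 7.0% higher and 11.1% lower in serum-replete medium. Most genes of either kind were within 2-fold. Of 23 genes of pyruvate dehydrogenase and the TCA cycle, which oxidize pyruvate in mitochondria, 0 differed by 2-fold after starvation (median log2 ratio −0.012), and 1, Idh3a, was higher in serum-replete medium (84.6 and 36.3 FPKM, median of the list 0.27). The widest log2 ratios after starvation were 0.76 (the phosphatase Pdp2) and −0.60 (Idh3g), and Dlat and Sdhb followed Idh3a in serum-replete medium at 0.94 and 0.63. Of 7 genes of the pentose phosphate pathway with a row of their own, which draws on glucose 6-phosphate, 1, the ribose 5-phosphate isomerase Rpia, was higher after starvation (32.2 and 8.35 FPKM, log2 ratio 1.83) and 0 in serum-replete medium. H6pd and Pgd followed at 0.56 and 0.51 after starvation, and G6pdx and Tkt were at −0.71 and −0.47 in serum-replete medium. The 3 measured genes of gluconeogenesis, Pck2, G6pc3 and Pcx, were under 2-fold in both media. Among isoenzymes and glucose carriers outside the list, 3 of 13 were higher and 3 lower after starvation. In serum-replete medium 1 of 12 was higher and 4 were lower, counts too small to set against the shares of all genes. The brain aldolase Aldoc was 11.6 and 1.80 FPKM starved (log2 ratio 2.17), while Aldoa made up 99.1% of aldolase FPKM in that TβRII-/- library. Pklr, the pyruvate kinase of liver and red cells, was low and lower in TβRII-/- cells, at 0.571 and 2.38 FPKM starved and 0.0683 and 5.98 FPKM replete.

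Other regulators of HIF were all within 2-fold, in a list small enough that the shares of all genes would give few calls. Of 15 measured regulators, 0 were higher or lower in either medium, with medians of 0.14 after starvation and −0.14 in serum-replete medium. The widest starved ratios were those of Siah2, a ubiquitin ligase for prolyl hydroxylases (26.8 and 13.4 FPKM, log2 ratio 0.94), and the coactivator Ep300 (0.70). Arnt2, a partner of HIF alpha, was −0.54 and −0.61 in the starved and replete media, Vhl and Os9 were −0.56 and −0.42 in the replete medium, and Hif3a was at 0 in all 4 libraries. Of a further 29 known HIF targets with a row of their own, 24 were measured after starvation. Of these, 4 (16.7%) were higher and 1 lower, with a median log2 ratio of 0.53, where 8.02% of all genes were higher and 6.64% lower. Ak4, 1 of the 4 higher targets, and Angptl4 (1.08 and 0.0650 FPKM) passed the minimum after starvation only through their values in TβRII-/- cells. In serum-replete medium 23 were measured, 0 were higher and 4 (17.4%) lower, with a median of −0.23, where 11.1% of all genes were lower. These counts are too small to set the list apart from all genes in either medium. Epo shares its row with Gnb2 and was left out.

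The further targets differed among themselves in direction and medium. Lox, a matrix lysyl oxidase, was 104 and 23.7 FPKM in TβRII-/- and TβRIIfl/fl cells after starvation (log2 ratio 2.08) but 51.3 and 127 FPKM in serum-replete medium (−1.29). Ak4, a mitochondrial adenylate kinase, was 5.18 and 0.282 FPKM starved and under 1 FPKM in both replete libraries. The histone demethylase Kdm4b was 62.1 and 25.4 FPKM starved (log2 ratio 1.26) and 19.9 and 16.1 FPKM replete (0.28). Lower in replete TβRII-/- cells were the secreted glycoprotein Stc2 (2.72 and 21.8 FPKM, log2 ratio −2.61), the repressor Bhlhe40 (21.5 and 97.9 FPKM, −2.14) and Loxl2 (10.8 and 33.7 FPKM, −1.56). Stc2 was also lower after starvation (18.0 and 37.1 FPKM, log2 ratio −1.01).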

How the data were processed

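RNA-Seq of 4 libraries (total RNA, 50 bp reads) was analysed, 1 for each genotype and medium, grouped by the sample labels. According to the submitters' processing notes, reads were aligned to mm10 and quantified with tools that include Cuffdiff, Cufflinks and TopHat2. Versions, annotation and strand setting were not given in the sources used here. In the deposited tables are FPKM for 37981 loci, normalized by Cuffdiff for each medium separately. Fold changes, p-values and q-values of the authors' own unreplicated comparison are in the same tables and were not used. From the deposited FPKM, log2 ratios were computed with a pseudocount of 1, so they understate differences of low genes, for loci that reached 1 FPKM in a library of the medium. A log2 ratio of 1 or more in either direction was counted as a difference. With 1 library per condition no test was run.

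The 39 members and the further gene lists were chosen with earlier results of these data known. Members at least 2-fold different in either medium are given with all 4 values, and from each further list up to 3 genes per medium with the largest ratios among those of at least 5 FPKM. Aqp2, Pax8, Pdk2, Hif3a, Angptl4, Slc2a2, Slc2a8 and the loci that overlap or copy a member were named outside this rule, after their values were seen. Epo and Pgls, which share a row with another gene, were left out of the counts of their lists. Gata3, which shares its row with 9230102O04Rik, was kept in the counts and sums of the collecting duct and epithelial markers. Of the further symbols, Tigar and Adgre1 were not found. Copies were counted as shared 50-base stretches of GENCODE vM21 transcripts, and start-site windows are those of RefSeq GRCm38.p6.

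For depth, FPKM of 3073 genes with a single transcript over 1500 bases were scaled by length for an assumed fragment of 200 bases. Between 58.6% and 66.1% of values up to 2.5 steps lay within 10% of a whole read, so reads were not recovered, no count model was used and depths are relative. No interval for counting error was computed. Recovery of planted differences was tested on simulated data. Pseudocounts, filters, 3 scalings and rows of a single symbol were tried as 8 alternatives. Python 3.11.15, pandas 2.3.3, numpy 2.4.6 and matplotlib 3.10.9 were used.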

Additional observations from a re-analysis of the deposited data

Results flagged for a closer look

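In 9 members the log2 ratio of TβRII-/- to TβRIIfl/fl cells was above 0 after serum starvation and below 0 in serum-replete medium, and reached 2-fold in at least 1 of them. Gpi1, Egln1, Adm, Plod2 and Ndrg1 also differed in sign but were under 2-fold in both media, with gaps of up to 1.06 (Ndrg1). With 1 library per condition this difference was not tested, and it rests on single libraries. The starved log2 ratio minus the replete one was 2.73 for Bnip3, 2.47 for Pdk1, 2.42 for Pfkl, 2.27 for Epas1 and 1.84 for Hk2. It was 1.61 for Bnip3l. In these 6 genes the starved TβRII-/- library was the highest of the 4. The gap was 2.03 for P4ha2, 1.96 for Ddit4 and 1.48 for Hif1a, where the replete TβRII-/- library was the lowest of the 4.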

How the results depend on the processing

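No paired analysis was possible because each condition is 1 library, and no library could be left out. The 8 alternatives reversed no direction, and the counts of members at least 2-fold higher or lower stayed within 1.5 times of those given. Rescaling each library to the same sum (TPM) moved the median of all genes to 0.20 after starvation and to 0.082 in serum-replete medium. With it the median log2 ratio of glycolytic members was 1.38 starved and 0.38 replete, and that of other HIF members 0.85 and −0.13. Relative to all genes these medians moved little, and 35 of 37 members stayed above 0 after starvation. The share of all genes called higher against lower was then 10.2% against 5.37% after starvation. Single members crossed 2-fold after starvation: Aldoa (0.99) and Vegfa (0.99) fell under it with upper-quartile scaling, Gapdh (1.08), Higd1a (1.07) and Ankrd37 (1.10) passed it as TPM, and Ankrd37 passed it with pseudocounts of 0.1 (1.12) and 0.5 (1.04). Values under 1 FPKM, as for Car9 and Slc16a3, are too low to compare.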
